A study of Homo sapiens with 8 samples.

Results

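ETS transcription factors share a DNA-binding domain that recognises GGAA, and 10 genes of the family are described here in LNCaP: ETV1, ETV4, ETV5, ERG, FLI1, SPDEF, EHF, ELF3, ETS1 and ETS2. They were taken by name, as all probes whose RefSeq accession belongs to one of them, which gave 10 of the 19796 genes with a symbol and 13 of the 42405 non-control probes on the array. LNCaP is an established line from a lymph node metastasis of prostate cancer, with luminal-like, androgen-responsive cells. The study transfected LNCaP cells in medium with serum with 30 nM siRNA against GATA2 (siGATA2) or scrambled siRNA (siControl), and measured RNA 72 h later on 8 one-colour Agilent arrays, 4 per group, described by the depositors as biological replicates. It asked how loss of GATA2, a factor that opens chromatin for others, changes the transcriptome. Both groups received an oligonucleotide and the same reagent, 1 cell line was used, and the methods name 1 catalogue siRNA against GATA2. Each probe's value below is its quantile-normalized log2 processed signal, and a difference is siGATA2 minus siControl, between the means of 4 arrays. Signals of different probes were not set against each other, because probes differ in how well they bind.

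The family divides by sequence and by role. ELF3, EHF and SPDEF belong to epithelial subfamilies and are known for keeping glandular epithelium differentiated. ETV1, ETV4 and ETV5 form the PEA3 group, which acts downstream of RAS and MAP kinase signalling, while ERG and FLI1 form another subfamily and ETS1 and ETS2 a further one. In prostate cancer ERG, ETV1, ETV4 and ETV5 are known to be activated by rearrangements that place them beside androgen-driven genes such as TMPRSS2, and LNCaP itself is known to carry ETV1 inserted within the MIPOL1 locus.

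GATA2, the targeted gene, binds DNA at words such as AGATAA, and the promoters of the members were searched for them. RefSeq promoter windows of build GRCh38.p14 were at hand for 6 of the 10 genes, with 16 windows among them, and the 250 bases before each start were searched on both strands. The GATA words searched were AGATAA as well as AGATAG, and the forms that begin with T, TGATAA as well as TGATAG. Such words can share an end letter with the ETS word. At least 1 GATA word occurred in 22.3% of all 35116 windows. CCGGAA, the core of many ETS sites, occurred in 14.5% of them. The windows of the 2 members that differed between the groups, of SPDEF, and 1 of the ETV1 windows are printed 5′ to 3′ on the gene's strand with any such word in capitals.
ELF3, chr1:202010337-202010586, plus strand: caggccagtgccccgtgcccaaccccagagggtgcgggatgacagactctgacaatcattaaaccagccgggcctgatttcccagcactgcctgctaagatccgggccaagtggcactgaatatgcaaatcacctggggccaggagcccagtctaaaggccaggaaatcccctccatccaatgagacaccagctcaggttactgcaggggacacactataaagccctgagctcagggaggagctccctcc
EHF, first start, chr11:34624007-34624256, plus strand: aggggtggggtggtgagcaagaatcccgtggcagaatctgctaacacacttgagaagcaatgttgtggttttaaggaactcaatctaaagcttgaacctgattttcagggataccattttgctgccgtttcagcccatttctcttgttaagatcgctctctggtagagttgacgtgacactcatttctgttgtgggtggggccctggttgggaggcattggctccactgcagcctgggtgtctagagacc
EHF, second start, chr11:34632316-34632565, plus strand: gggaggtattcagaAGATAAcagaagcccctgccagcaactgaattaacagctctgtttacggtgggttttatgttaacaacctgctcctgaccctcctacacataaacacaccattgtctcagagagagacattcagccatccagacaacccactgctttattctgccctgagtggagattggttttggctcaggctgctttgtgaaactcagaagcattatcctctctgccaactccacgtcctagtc
SPDEF, chr6:34556330-34556579, minus strand: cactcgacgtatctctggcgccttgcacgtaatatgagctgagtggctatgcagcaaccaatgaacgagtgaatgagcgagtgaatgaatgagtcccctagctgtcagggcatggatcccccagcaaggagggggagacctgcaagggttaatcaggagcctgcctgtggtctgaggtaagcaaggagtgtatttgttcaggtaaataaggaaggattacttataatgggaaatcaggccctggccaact
ETV1, chr7:13991426-13991675, minus strand: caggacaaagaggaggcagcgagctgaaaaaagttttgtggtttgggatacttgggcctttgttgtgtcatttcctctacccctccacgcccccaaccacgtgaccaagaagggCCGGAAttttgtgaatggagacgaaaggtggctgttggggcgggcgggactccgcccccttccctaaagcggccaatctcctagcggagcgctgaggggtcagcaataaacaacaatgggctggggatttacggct
None of the words was in the ELF3, SPDEF and first EHF windows. The second EHF window held AGATAA with its first base at position -236 from the start. Of the 6 ETV1 windows, 3 held CCGGAA and none held a GATA word. One of the ETS2 windows held 2 GATA words and 2 of the ERG windows held 1 each. Those 2 ERG windows overlap and hold the same word. Among the 3 ETV1 windows with CCGGAA, 2 likewise overlap and share the same CCGGAA. These are matches of letters in short windows, with no measurement of binding.

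Across the arrays, 24261 to 37019 probes were well above background by the scanner software's own test, and no spot was saturated. The fewest were on siControl arrays 1 and 3, whose negative controls spread most, with an SD of 4.49 on the first and 7.26 on the second and 1.78 to 2.40 elsewhere, in units of intensity. The GATA2 probe was well above background on all 8 arrays and was not lower on the arrays labelled siGATA2. It differed by 0.68 (standard error 0.311, limma adjusted p = 0.151), so every direction below is that of arrays labelled siGATA2 against arrays labelled siControl. By Western blot, the study reported a very marked loss of GATA2 protein in LNCaP cells given siGATA2. These arrays measure RNA and not protein. Of 35514 probes tested, 27% had an adjusted p under 0.05, with 5155 lower and 4447 higher. The letter in the sample titles, whose meaning the labels do not give, sets arrays A and B (siGATA2 1 and 2, siControl 1) apart from arrays D to G (siGATA2 3 and 4, siControl 2 to 4), and values within these sets are given where they matter. This split was chosen after seeing these data, so intervals narrowed by a block on it are no independent measure of precision. Of the 2 rows of the slide, row 1 held 3 siGATA2 arrays and 1 siControl array and row 2 the reverse. With the row as a block ELF3 differed by 2.40 and EHF by -1.82.

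Of the 10 ETS genes, 7 had a probe bright enough to be tested. ELF3 rose, EHF fell and SPDEF, ETV1, ETV4, ETS1 and ETS2 did not pass the test. That is 1 gene called lower, where 14.5% of all probes tested were, and 1 called higher, where 12.5% were. Both passed a 2-fold size too, as 7.3% of all probes did on the lower side and 4.71% on the higher side. The median difference of the 7 was -0.12, beside 0.08 over all probes tested. With arrays scaled to the E1A spike-ins in place of quantiles, which moved the median of all probes to -0.43 and called 2436 lower and 171 higher, ELF3 and EHF kept their calls, and none of the other ETS genes, PEA3 regulators, fusion partners or ETS targets was called higher.

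ELF3, an epithelial ETS factor also induced by inflammatory signals, showed the largest rise among the members. Its probe read 13.51, 13.80, 13.94 and 13.96 on siGATA2 arrays 1 to 4 and 11.19, 11.45, 11.45 and 11.56 on siControl arrays 1 to 4. The groups did not overlap, as held for 32.9% of all probes tested, and the lowest siGATA2 array stood far above the highest siControl array. The mean was 13.80 ± 0.208 (SD, n = 4) against 11.41 ± 0.156 (SD, n = 4), a difference of 2.39 or 5.25-fold (standard error 0.142, 95% interval 2.06 to 2.72, limma adjusted p = 2.87e-05). Ordered by difference, this probe was at rank 182 from the highest of the 35514 tested. Within the A and B arrays the difference was 2.46 and within the D to G arrays it was 2.47.

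EHF, the closest relative of ELF3 among the members and a factor known for restraining prostate epithelial cells from losing their identity, moved the opposite way. Its signal was 11.95, 11.72, 10.67 and 10.73 on siGATA2 arrays 1 to 4. On siControl arrays 1 to 4 it was 13.67, 12.85, 12.85 and 12.69. No siGATA2 array reached a siControl array, and the A and B arrays were higher than the D to G arrays within each group. The difference was -1.75, or 3.36-fold lower (standard error 0.357, 95% interval -2.57 to -0.93, limma adjusted p = 0.0083). It lay at rank 980 from the lowest. Without siControl array 1, which stood apart from the other 3, it was -1.53. Holding the letter sets, chosen after seeing the data, as a block gave -2.00 with a narrower interval of -2.23 to -1.78. In bulk RNA, fewer cells with a transcript and less of it per cell cannot be told apart, for EHF as for every gene here.

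SPDEF, the prostate-derived ETS factor known to bind the androgen receptor and act on the KLK3 promoter, was well above background on all 8 arrays and did not differ beyond the spread between them. It read 13.56, 13.57, 13.38 and 13.30 on siGATA2 arrays and 13.35, 13.58, 13.75 and 13.60 on siControl arrays. The groups overlapped. The difference was -0.12 with a 95% interval of -0.41 to 0.17 (limma adjusted p = 0.523). Small changes of either sign lie within that interval. Its sign differed between the letter sets, at 0.21 within A and B and -0.30 within D to G. The D to G value taken alone passed the test (limma adjusted p = 0.041). In that subset, chosen after seeing the data, 7118 of the 35514 probes tested were called lower and 8694 higher.

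**Figure D1:**
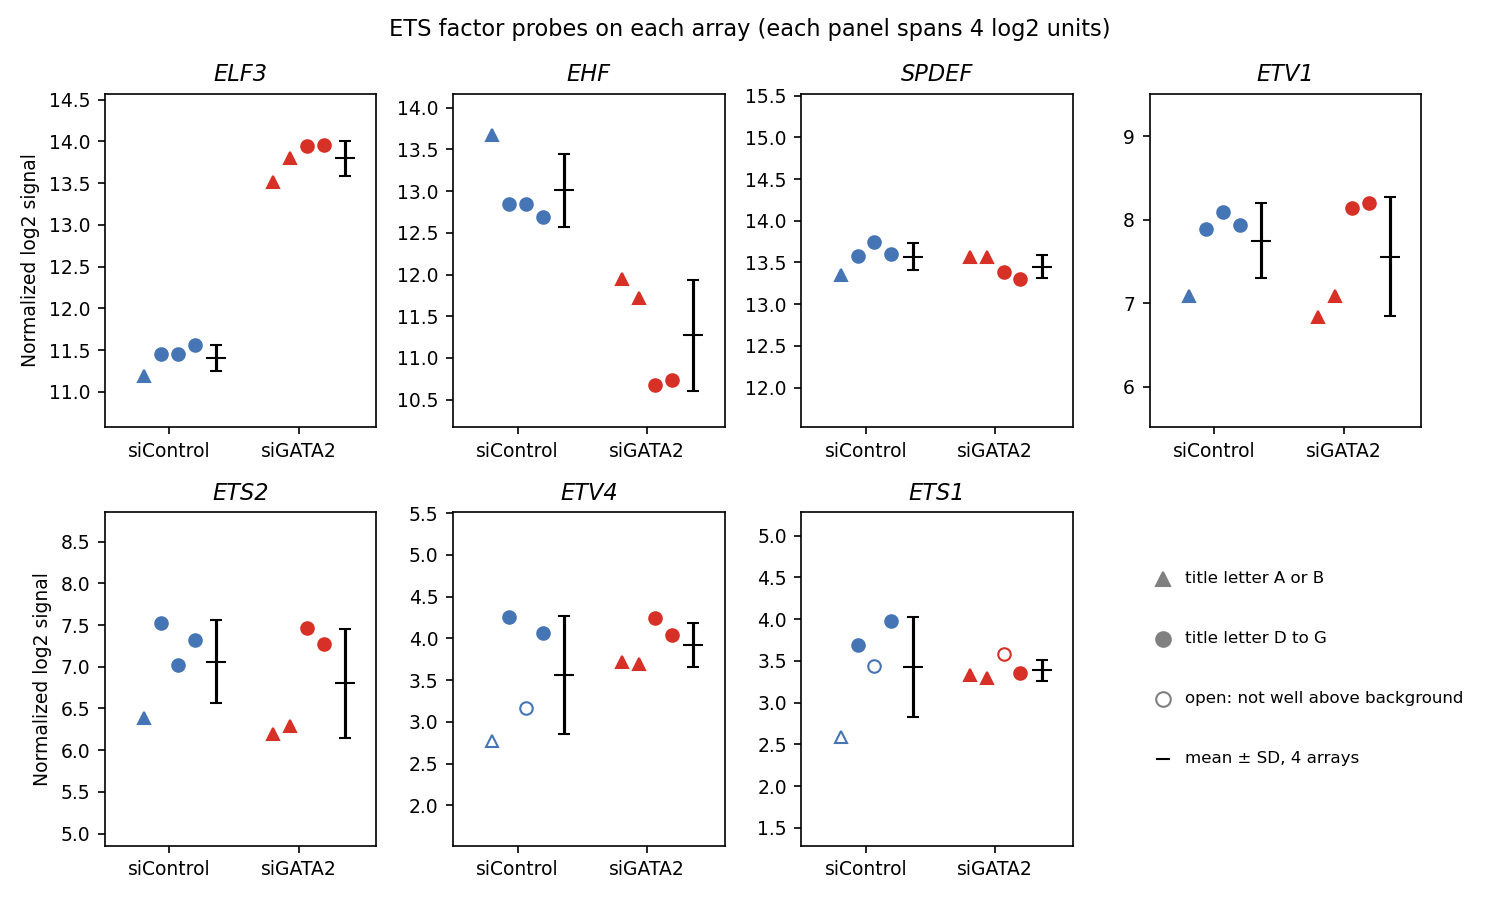
Normalized log2 signal of the brightest probe of each ETS gene tested, 1 point per array, siControl in blue and siGATA2 in red, with triangles for title letters A and B, circles for D to G, open symbols where the probe was not well above background, and mean ± SD over 4 arrays. ELF3 is higher and EHF lower on all 4 siGATA2 arrays, while ETV1 and ETS2 separate triangles from circles rather than red from blue.

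The plot of the members by array shows 2 kinds of pattern. ELF3 and EHF separate by siRNA label, and ETV1, ETS2 and ETS1 separate by title letter. For these last 3 genes every A or B array was below every D to G array, by a small margin for ETS1 (3.33 and 3.36 at the nearest). Of all probes tested, 13.6% shared this pattern in that direction and 13.4% had it in the other. ETS1 was well above background on 3 siGATA2 and 2 siControl arrays only, so its split rests partly on readings near background.

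ETV1, whose rearrangement marks LNCaP, was well above background on all arrays for 1 of its 4 probes. That probe, A_33_P3357954, read 6.83, 7.09, 8.14 and 8.20 on siGATA2 arrays 1 to 4 and 7.09, 7.89, 8.09 and 7.94 on siControl arrays 1 to 4. The 3 arrays of letters A and B lay between 6.83 and 7.09 and the 5 of letters D to G between 7.89 and 8.20, with both siRNAs in each set. The difference between the siRNA groups was -0.19 (standard error 0.375, 95% interval -1.06 to 0.68, limma adjusted p = 0.740). With the letter sets, chosen after seeing the data, as a block it was 0.08, and the interval narrowed to -0.18 to 0.33 (adjusted p = 0.581). In processed signal, before normalization, the D to G arrays read 254.7 to 287.3 units and the A and B arrays 94.8, 135 and 165.

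The other ETV1 probes carry the same transcript accession and were near the scanner's floor. A_33_P3357949, printed as a single spot, gave a processed signal of 223 on siGATA2 array 2 and 2.26 to 18.0 on the other 7 arrays, and was well above background on that array alone. A_33_P3401156 was well above background on siGATA2 array 1 alone, at 9.10 units, and A_32_P78491 on no array. The bright spot on siGATA2 array 2 had no counterpart in the main probe, which read 165 there, below every D to G array. No pair of probes for one member gene was well above background on all arrays, so a shift between transcripts of a gene could not be tested.

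**Figure D2:**
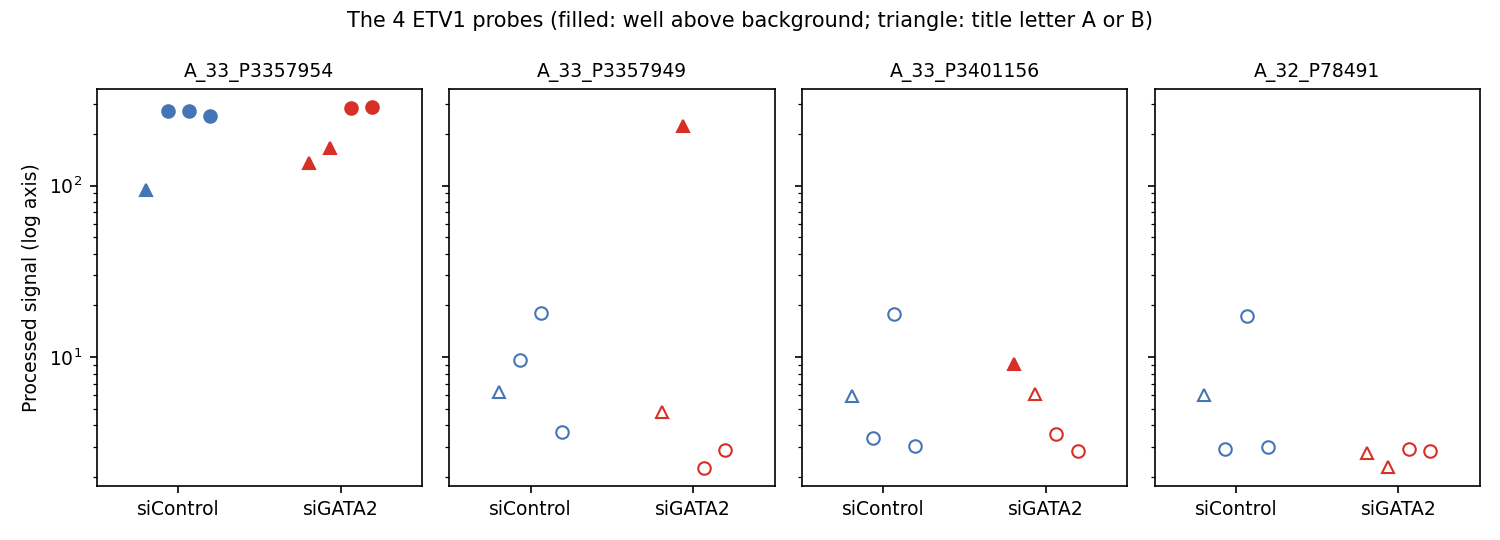
Processed signal (linear intensity units on a log axis, before normalization) of the 4 ETV1 probes on each array, siControl in blue and siGATA2 in red, filled where well above background, triangles for title letters A and B. A_33_P3357954 is well above background on all 8 arrays, and A_33_P3357949 only on siGATA2 array 2, at 223.

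The rest of the PEA3 group was faint. ETV4, a relative of ETV1 that is rearranged in some prostate cancers, read 3.72, 3.69, 4.24 and 4.04 on siGATA2 arrays and 2.77, 4.26, 3.16 and 4.06 on siControl arrays. The 2 low siControl arrays, 1 and 3, are the ones where it was not well above background and where negative controls spread most. Its difference of 0.36 (95% interval -0.43 to 1.15) did not pass (limma adjusted p = 0.470). ETV5 was well above background on 1 siGATA2 array and on no siControl array, and its mean was under the brightness filter.

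ERG and FLI1, the 2 members best known outside the epithelium, in endothelial and blood cells, were well above background on none of the 8 arrays. Their normalized values ran from 1.88 to 3.63 for ERG and from 1.92 to 2.99 for FLI1. The highest of each lay on siControl array 3. On the 8 arrays the highest value of any probe not well above background was between 3.21 and 6.84, so these readings set no level for either gene and were not tested.

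ETS2, a MAP kinase-responsive factor expressed in many tissues, gave 6.19, 6.29, 7.46 and 7.27 on siGATA2 arrays and 6.39, 7.52, 7.02 and 7.32 on siControl arrays. As for ETV1, the A and B arrays of both siRNAs were low, at 6.19 to 6.39, and the D to G arrays high, at 7.02 to 7.52. The difference between siRNA groups was -0.26 (95% interval -1.11 to 0.59, limma adjusted p = 0.636). It became 0.00 (95% interval -0.31 to 0.31) with the letter sets, chosen after seeing the data, as a block. ETS1, its paralogue, was dim, with 3 of 8 spots well above background on siGATA2 arrays and 2 of 8 on siControl arrays, and its difference was -0.03 (95% interval -0.68 to 0.62).

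By the likeness of patterns over the 8 arrays, the genes closest to ETV1 were MIAT (Pearson r = 0.994), VDAC2, SLC6A6, MRPL36 and PBDC1 (r = 0.992 each), chosen from 13279 genes well above background on every array. None of these 5 was called between the siRNA groups, with differences from -0.25 to -0.05. The genes closest to SPDEF were DRG2 (r = 0.946), E2F4, P2RY4, DNASE1L1 and SPOUT1 (r = 0.933), none of them called. These correlations are descriptions over 8 arrays that share the same split by title letter, and are highest of many.

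Among the other 18 genes of the ETS family, 17 were tested, of which 6 fell, 2 rose and 9 did not pass, with a median of -0.15, beside 14.5% of all probes tested called lower and 12.5% higher. FEV, known from serotonergic neurons, fell, with 4.66 to 5.22 on siGATA2 arrays and 6.71 to 7.08 on siControl arrays, a difference of -1.95 (standard error 0.158, limma adjusted p = 9.75e-05), or -0.93 under normexp background correction. ELK3, a partner of serum response factor and a MAP kinase target, fell by 1.65 on the log2 scale (standard error 0.185, adjusted p = 0.000426), or by 0.64 under normexp, with 4 siGATA2 and 3 siControl arrays well above background. SPIC, known from macrophages, was among the 6 called, but its probe was well above background on 1 siGATA2 and 2 siControl arrays only, at 2.55 to 3.05 and 4.30 to 6.29, so its difference has no firm size (-2.73, and -0.78 under normexp). ELF5, the third of the epithelial trio with ELF3 and EHF, fell by 1.00 (standard error 0.223, adjusted p = 0.0125), with 8.87 to 9.62 on siGATA2 arrays and 9.72 to 10.39 on siControl arrays. ELK4, which is known to form a read-through transcript with SLC45A3 in prostate cells, fell by 0.56, and ELF4 by 0.43.

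ELF1, a broadly expressed ETS factor, rose by 1.40 on its brightest probe (standard error 0.324, limma adjusted p = 0.0144), with 9.60 to 10.76 on siGATA2 arrays and 8.52 to 9.14 on siControl arrays. Its second probe gave 1.37 and missed the threshold (adjusted p = 0.0564). ETV3, a repressor, rose by 0.50 on its brightest probe, while its dimmer probes gave -0.23 and -0.82, neither called, so the direction for ETV3 rests on 1 probe. ETV3L was dim and not tested.

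**Figure D3:**
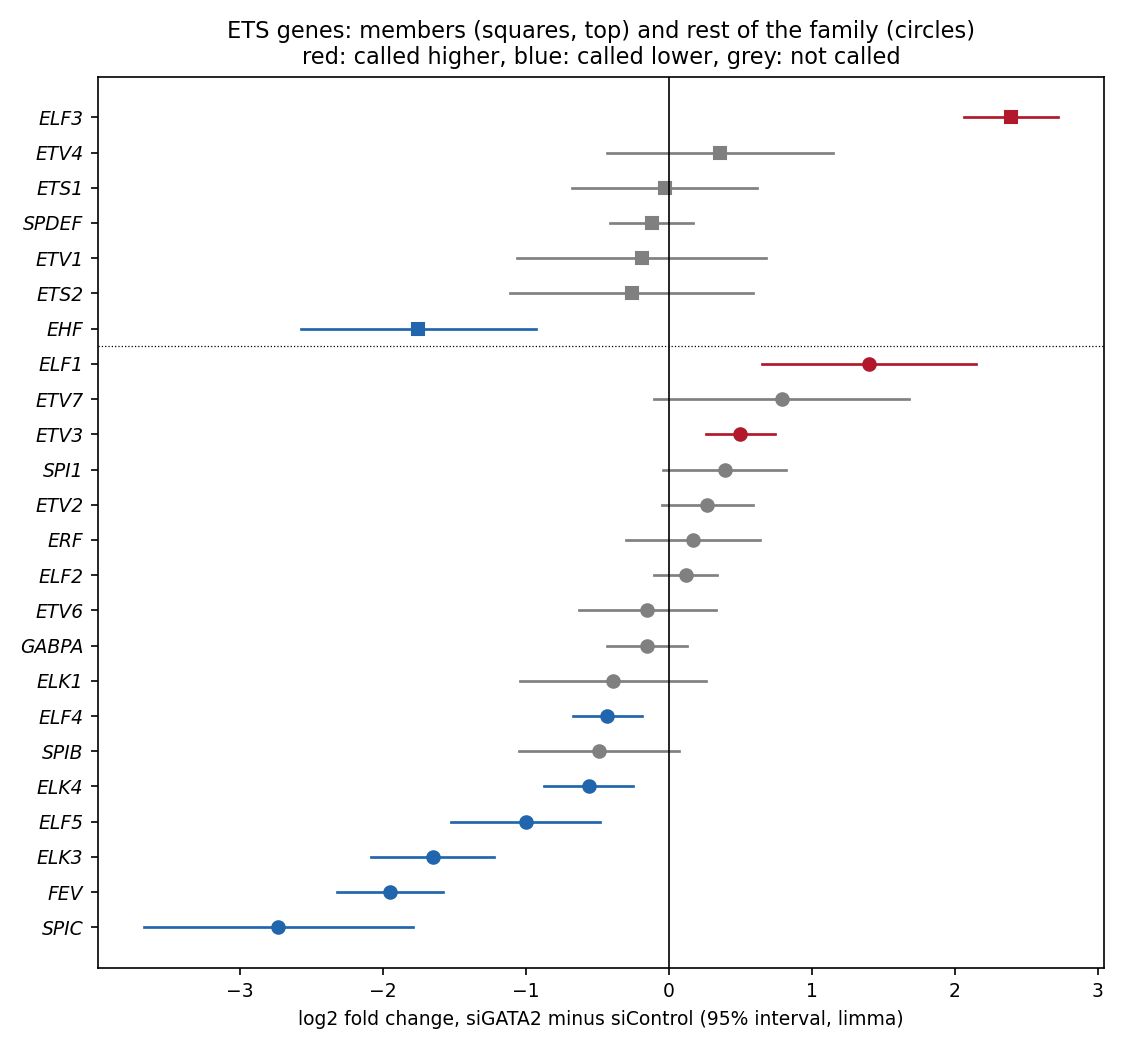
Difference in log2 signal, siGATA2 minus siControl, for the 7 tested ETS members (squares, above the dotted line) and the 17 other tested genes of the family (circles), with 95% limma intervals, red where called higher, blue where called lower and grey where not called. ELF3 at 2.39 lies farthest to the right of all 24 genes, EHF at -1.75 is the only member called lower, and the widest interval is that of SPIC.

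The plot of the family shows the epithelial relatives on both sides, with ELF3 higher and EHF and ELF5 lower. The intervals for ETV1 and ETS2 spanned 0 and reached -1.06 and -1.11 on the low side.

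Of 15 regulators of the PEA3 group, each by its brightest probe, 1 fell, none rose and 14 did not pass. Of all probes, 14.5% were lower and 12.5% higher. Their median was 0.13, with all 15 well above background on every array. At an unadjusted limma p under 0.05, 3 of them were higher, and the methods' t-test called 1 higher after adjustment. ATXN1L, which with CIC forms the repressor of ETV1, ETV4 and ETV5, fell by 0.67 (standard error 0.109, limma adjusted p = 0.00273). It read 10.78 to 11.13 on siGATA2 arrays and 11.58 to 11.69 on siControl arrays. CIC itself differed by 0.18, COP1, the ubiquitin ligase that marks the PEA3 proteins for destruction, by 0.38, and its adaptor DET1 by 0.13, none of them called. ATXN1 differed by 0.41 on its brightest probe and was not called (limma adjusted p = 0.0902). Its dimmer probes were called higher, at 0.70 (limma adjusted p = 0.0255) and 1.07 (limma adjusted p = 0.0311). These were well above background on all 4 siGATA2 arrays, and on 3 and 2 siControl arrays.

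Genes known from ETS rearrangements moved both ways, with 4 of 11 lower (14.5% of all probes), 3 higher (12.5% of all probes) and 4 not called. Their median was -0.13. Of the 4 lower, MIPOL1 is counted as the site of the ETV1 insertion and not as a promoter donor. SLC45A3, a luminal prostate gene, fell most, with 11.57 to 12.78 on siGATA2 arrays and 14.92 to 15.19 on siControl arrays. Its difference was -2.87, or 7.32-fold lower (standard error 0.278, limma adjusted p = 0.000211). KLK2, an androgen-induced kallikrein, fell by 1.84 and CANT1, also androgen-induced, by 0.97. NDRG1, a stress and androgen-responsive gene, rose by 1.21 (standard error 0.124, adjusted p = 0.000284), ACSL3, a fatty acid ligase, by 1.13 and DDX5, an RNA helicase, by 0.66 (-0.13 with spike-in scaling). TMPRSS2, the usual partner of ERG, differed by -0.13 and was not called (adjusted p = 0.664). MIPOL1, the locus that holds the inserted ETV1 in this line, fell by 0.78 (standard error 0.13, adjusted p = 0.0032), with 9.21 to 9.44 on siGATA2 arrays and 9.86 to 10.34 on siControl arrays. Its second probe gave -0.70 with overlapping groups and was not called (adjusted p = 0.0971). The brightest ETV1 probe did not separate by siRNA, but its 95% interval, -1.06 to 0.68, contains the MIPOL1 difference. Whether the 2 genes differed from each other was not tested.

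Of 19 tested genes known as ETS targets, 3 were lower, 3 higher and 13 not called, with a median of -0.10. These counts are near the shares of all probes, 14.5% lower and 12.5% higher. CRISP3, a secreted protein known to be high in ERG-rearranged tumours, was well above background on all 4 siControl arrays and on no siGATA2 array (limma adjusted p = 0.00474). Its siControl values were 4.60, 4.41, 7.08 and 4.34. Against the highest signal of any probe not well above background on each siGATA2 array it was at least 2.80-fold lower, and at least 1.77-fold without siControl array 3. Against the lowest signal of any probe well above background there, a lower floor, these values were 6.65 and 4.21. Under normexp background correction the difference was -1.02 and not called (adjusted p = 0.147). PLA1A, a phospholipase, fell by 1.69 (0.70 under normexp), with its probe well above background on 4 siGATA2 and 2 siControl arrays, and FZD4, a WNT receptor, by 1.13. DUSP6, a phosphatase that shuts off ERK and is induced by PEA3 factors, rose by 1.68 (standard error 0.261, adjusted p = 0.00225), with 7.47 to 8.60 on siGATA2 arrays and 6.21 to 6.67 on siControl arrays. SPRED2, another inhibitor of the RAS and ERK pathway, rose by 1.31 and MMP9, a matrix protease, by 0.80. The 2 probes of TDRD1 disagreed, at -0.10 (not called) for the brighter and -1.19 (adjusted p = 0.00337) for the dimmer.

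**Figure D4:**
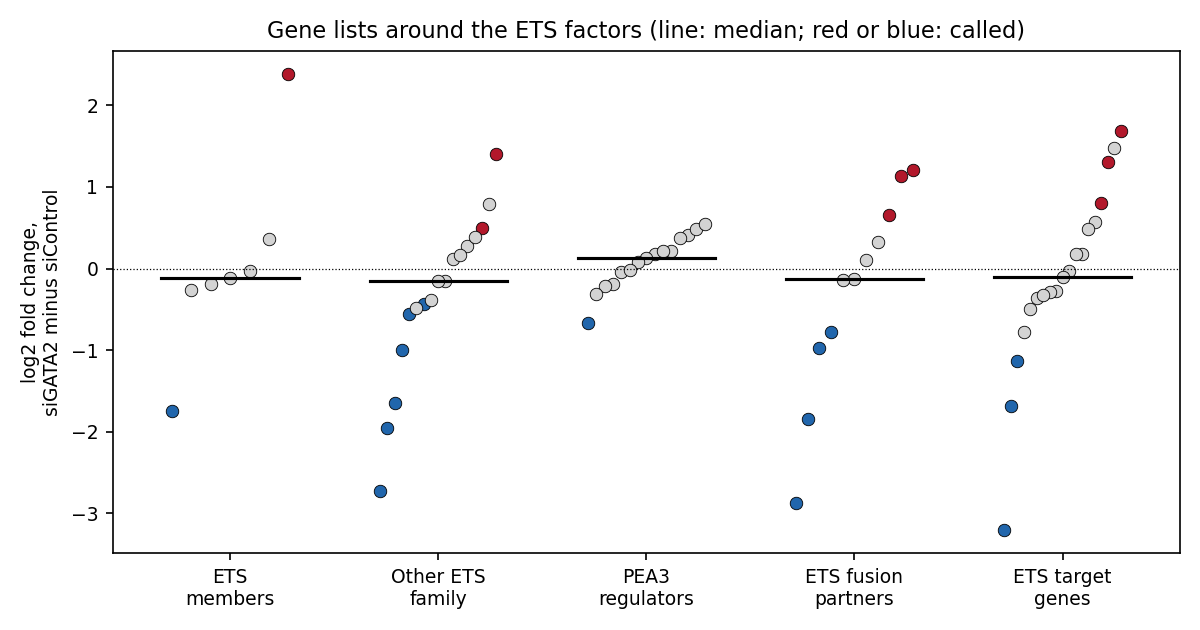
Difference in log2 signal, siGATA2 minus siControl, of each tested gene (1 point, its brightest probe) in the 5 gene groups, with the group's median as a bar and called genes in red (higher) or blue (lower). The 5 medians lie between -0.15 and 0.13, and called genes stand at both ends of all groups but the PEA3 regulators.

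The plot of the gene groups shows that a median near 0 hides called genes of opposite sign. The lowest point, CRISP3, is drawn at its measured difference and not at its bound.

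All 11 luminal prostate markers were well above background on every array. So were 2 of 6 basal, 2 of 6 endothelial, 2 of 5 leukocyte and 1 of 6 fibroblast markers with a probe. Detection of single markers therefore does not name a cell type. Of all probes tested 14.5% were lower and 12.5% higher, against which the marker counts stand. Like EHF, 7 of 11 luminal markers were lower, among them SLC45A3, KLK2 and ACP3, and 1, KRT8, was higher. The dimmer KRT8 probe gave 0.80 and was not called (limma adjusted p = 0.0685). The log2 of the 11 markers' summed linear signal was 18.36 to 18.98 on siGATA2 arrays and 18.90 to 19.22 on siControl arrays. Bright probes weigh most in such a sum, and the sums of the other marker lists were made the same way. SLC45A3, KLK2 and TMPRSS2 stand among the fusion partners too. Of the basal epithelial markers, ITGB4 and DST were higher, 2 of 4 tested (the dimmer probes of DST gave 0.31 and -0.31, neither called), while KRT5 was well above background on no array, and the summed signal was 9.81 to 10.12 against 8.17 to 8.87. Leukocyte markers had 2 of 5 higher, PTPRC and CD68, the latter a lysosomal protein found in many cell types, and a sum of 10.24 to 10.43 against 9.35 to 9.64. The dimmer PTPRC probe gave 0.59 and was not called (limma adjusted p = 0.0525). Endothelial markers had 1 of 4 lower, VWF, with TEK well above background on no array and sums of 9.64 to 10.01 against 10.20 to 10.50. Fibroblast markers had none of 4 called by limma or the methods' t-test, and 0 at an unadjusted p under 0.05, with COL3A1 and LUM well above background on no array and sums of 8.73 to 9.73 against 9.15 to 9.95. The part of these shifts in the ELF3 and EHF results was not tested.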

How the data were processed

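RNA of LNCaP cells was measured 72 h after transfection with 30 nM siGATA2 or siControl, 4 one-colour arrays each. The authors deposited each spot's intensity as Agilent Feature Extraction 11.0.1.1 (submitters' processing notes) wrote it, of which the processed signal, median signal, background and the quality flags (other) entered the calculations, together with a table of log2 values. Their methods name quantile normalization. Here log2 processed signals were averaged over a probe's unflagged spots and quantile-normalized over 8 arrays. Probes were named through RefSeq (26364 of 27902 with an accession). Those without annotation (1914) or with a mean under 3 were removed, leaving 35514. Groups came from the labels, and limma 3.58.1 (lmFit, eBayes, Benjamini-Hochberg, threshold 0.05) in R 4.3.3 stood in for the methods' t-test. The brightest probe stood for a gene, and a probe was well above background on an array if at least 1 unflagged spot was.

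A called gene was lower or higher at an adjusted p under 0.05. The 10 members and all lists (other ETS family, PEA3 regulators, ETS fusion partners, ETS target genes and markers of luminal, basal, endothelial, leukocyte and fibroblast cells) were chosen with earlier results of these data known. One luminal marker of the list is not reported here, and the counts leave it out. Named genes are the members, GATA2, called list genes among the 3 largest rises or falls of their list, and the 5 genes closest in pattern to ETV1 and to SPDEF. ELF5, ELK4, ELF4, CIC, COP1, DET1, ATXN1, TMPRSS2, MIPOL1, TDRD1, ETV3L and the markers are named beyond that rule, after their values were seen. All arrays lay on 1 slide, so slide could not be a block. Normexp took the median signal, as a mean is not among the columns. Tested on simulated data for this comparison over 35514 probes, limma recovered 83.5% of 200 probes shifted by 2 on the log2 scale, with 4.57% of calls false. That rate holds for shifts of that size and gives none for smaller differences. Arrays have no read depth, and their number, 4 per group, limits precision. Alternatives covered scaling, background correction, filters, test, blocks, array weights and leaving out arrays. The tumour and xenograft data of the study were not analysed here.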

Additional observations from a re-analysis of the deposited data

Results flagged for a closer look

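In 88 groups of 4 arrays, 8 held 1 array far from the other 3, where chance gives about 1 in 20 groups. The groups were taken over the member probes, GATA2, the tested genes of the other ETS family, and the other lists' genes named by the rule. Of the 8, 5 lay on siControl array 1. On that array EHF read 13.67 against 12.69 to 12.85 on the other siControl arrays, ETV3 7.77 against 7.64 to 7.66, ETV7 3.75 against 4.75 to 4.87, ELF5 9.72 against 10.31 to 10.39, and KLK2 12.72 against 13.15 to 13.23. It is the only siControl array with title letter A or B, and 1 of the 2 with the most spread negative controls. The ETV1 probe A_33_P3357949 read 7.55 on siGATA2 array 2 against 1.83 to 2.29 on the other siGATA2 arrays. The ETV1 probe A_33_P3401156 read 3.43 on siControl array 3 against 1.85 to 2.11 on the other siControl arrays, without being well above background there. CRISP3 read 7.08 on siControl array 3 against 4.34 to 4.60.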

How the results depend on the processing

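ELF3 was called higher in all 24 tested alternatives (1.73 to 2.49) and EHF lower in all 24 (-2.42 to -1.50, adjusted p at most 0.0499, with siControl arrays 2 and 4 only). Arrays of letters A and B alone, as values without a test, gave the same signs. Blocks and subsets by title letter were chosen after seeing the data. Leaving out each array in turn gave ETV1 -0.41 to 0.06, ETV4 0.10 to 0.59, ETS1 -0.31 to 0.15 and ETS2 -0.48 to -0.05, none called, and PEA3 regulators called higher 0 to 1. ETV1 turned to 0.06 without siGATA2 array 1, 0.08 with the letter sets as block and 0.20 on D to G arrays, and ETS2 to 0.08 there. ETV4 turned to -0.40 under E1A spike-in scaling, -0.03 under normexp, -0.09 with array weights and -0.24 with siControl arrays 2 and 4 only. ETS1 turned to 0.08 with title letter as random block, 0.05 without siControl array 2, 0.15 without siControl array 4 and 0.11 with the letter sets as block, and read 0.72 on A and B arrays. SPDEF was called on D to G arrays at -0.30, making 2 members lower, where 7118 of all probes were called lower. It read 0.21 on A and B arrays. GATA2 was called higher, at 0.47, with the letter sets as block, and was 0.03 under spike-in scaling and 0.26 on D to G arrays, neither called. The cause was not tested.

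Spike-in scaling moved the median of all probes to -0.43, against 0.08. Relative to it ELF3 was at 2.16, EHF at -1.99 and SPDEF at -0.40. It called 2436 probes lower and 171 higher, 0 PEA3 regulators and 2 fusion partners lower, and 0 of the other ETS genes, fusion partners and ETS targets higher, and DDX5 turned to -0.13. Probes called higher were 6693 with array weights, 6691 with title letter as random block, 2717 with slide row as block, 9022 with the letter sets as block and 8694 on D to G arrays. PEA3 regulators called lower were 2 with array weights and 2 with the letter sets as block. Higher, they were 1 under 75th percentile scaling, 1 by the methods' t-test, 2 with title letter as random block, 1 without siGATA2 array 1, and 4 with the letter sets as block and on D to G arrays. Other ETS genes called higher were 4 under 75th percentile scaling, 1 with slide row as block, 1 with siControl arrays 2 and 4 only, and 5 with the letter sets as block and on D to G arrays. ETS targets called higher were 5 with title letter as random block, with the letter sets as block and on D to G arrays.

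Replicate numbers did not pair the arrays (correlations of deviations 0.53, -0.31, 0.17 and 0.23). With the replicate block ELF3 was 2.39 (adjusted p = 0.00193), EHF -1.75 (adjusted p = 0.00531), and 4677 probes were lower and 4241 higher, with no member's call changed. Of the 22 called list genes, 8 (FEV, ELF5, ELK3, SPIC, SLC45A3, KLK2, PLA1A and FZD4) were called in every alternative that gave them a value, though under normexp FEV shrank to -0.93, ELK3 to -0.64, SPIC to -0.78 and PLA1A to -0.70. ELF4 (adjusted p = 0.0553) and ELK4 (adjusted p = 0.0546) missed the threshold with the replicate block. CRISP3 missed it under normexp, at -1.02, and on D to G arrays, at -3.36. Signal over background limits ETV4, ETV5, ERG, FLI1 and ETS1 most.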
